A study of Caenorhabditis elegans with 12 samples.

Results

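The splicing of larvae carrying sacy-1(tn1385) was compared with that of wild-type N2 larvae of the worm Caenorhabditis elegans. The comparison held 6 of the 12 libraries of the study, namely the 3 sacy-1(tn1385) libraries of strain DG3430, numbered az024 to az026, and the 3 N2 libraries numbered az021 to az023 (N2 az02). The other 6 libraries, of mog-5(az192) larvae and of a second N2 set (N2 az04), are used here only beside this comparison. All worms were whole L3 larvae grown for 34 hours at 20 °C from embryos isolated by bleaching, on plates seeded with OP50 bacteria. Ribosomal RNA was removed from the total RNA, and both ends of the fragments were read over 150 nt. The mog-5(az192) libraries come from strain SZ454. Only 1 strain carries each allele here, so effects of an allele and of its strain cannot be told apart. That N2 az02 is the partner of sacy-1(tn1385) was read from the library numbers, since the labels do not state it, and they do not say whether libraries came from separate cultures. The p-values therefore rest on the scatter of these 6 libraries, possibly only technical scatter. Every splicing event listed in all 6 libraries was a member, which gave 7451 of the 7886 events listed in any library.

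SACY-1, a DEAD-box RNA helicase of the spliceosome, corresponds to DDX41 in humans. During splicing, the spliceosome cuts the intron first at the 5′ splice site (the donor) and then at the 3′ splice site (the acceptor), where an AG dinucleotide marks the end of the intron. Many introns have a pair of possible acceptors a few bases apart, and RNA helicases of the DEAD-box and DEAH-box families can act at such steps to reject a poor choice. The question given by the title of the study was whether SACY-1, and MOG-5, the counterpart of the helicase PRP22, act against the acceptor nearer to the donor. In the alternative 3′ events here, that upstream acceptor gives the longer mRNA. Its use is the percentage of the event's 2 deposited scores that belongs to the upstream form, and differences are given in percentage points. The deposited lists name no genes, so events are given by position on build ce10, with each acceptor as the exonic base after the intron.

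The events came in 2 catalogues. The library-intron catalogue, which holds alternative 3′ and alternative 5′ splice sites, had 5069 of 5267 events in all 6 libraries. The Ensembl archive 65 catalogue, with alternative first and last exons, skipped exons, mutually exclusive exons and retained introns, had 2382 of 2619. The files give no read totals and no expression levels, so depth was unknown, and neither the mutated gene nor the larval stage could be checked in them. N2 az02 stood apart in its low values. Between 347 and 449 library-intron events per library were at or below 0.1% in sacy-1, between 347 and 434 in mog-5, between 810 and 1130 in N2 az02 and between 573 and 770 in N2 az04. What part this had in the differences between groups was not tested.

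Closely spaced acceptor pairs moved to the upstream acceptor in sacy-1 larvae. An event was called when limma's adjusted p was below 0.05 and the groups differed by at least 15 points, which held for 321 of the 5069 library-intron events (6.33%). Alternative 3′ events made up 313 of these, out of 3370 tested (9.29%), and 310 of the 313 used the upstream acceptor more in sacy-1. Over the whole catalogue 6.17% of events were called higher and 0.158% lower. Between the wild-type sets, N2 az04 against N2 az02, the share called was 0.0392%. These sets still differed. Of 783 pairs 6 nt apart, 197 were higher in N2 az04 and 14 lower at limma's unadjusted p below 0.05. The 310 rose by a median of 30.1 points, with quartiles of 21.4 and 44.0 points and a largest rise of 81.4 points. In 138 of the called events the upstream acceptor was the main one in sacy-1, at a mean of 50% or more, and the minor one in N2 az02, under 50%. Another 154 stayed under 50% in both groups. At the upper end 45 events differed by at least 50 points, and 58 lay just inside the minimum, at 15 to 20 points.

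The called events were the upper end of a wider shift. Over all 3370 alternative 3′ events the median difference was 1.94 points, and 2646 of them (78.5%) were higher in sacy-1. The 3 sacy-1 libraries all lay above the 3 N2 az02 libraries in 1180 alternative 3′ events, 35.0% of them, where the share over all library-intron events was 25.4%. They all lay below in 78, or 2.31%, where the share over the catalogue was 3.67%. By adjusted p alone, limma passed 9.98% of the library-intron events, and 171 alternative 3′ events were higher and 5 lower in this way with differences under 15 points. Another 207 were higher and 71 lower by at least 15 points without passing the test. The libraries of those uncalled events scattered more, with a median SD of 14.4 points in sacy-1 and 12.9 in N2 az02, against 3.06 and 3.67 points in the called events. Whole larvae hold many tissues, and a change in the make-up of the larvae and a change of splicing within a cell cannot be told apart here.

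**Figure D1:**
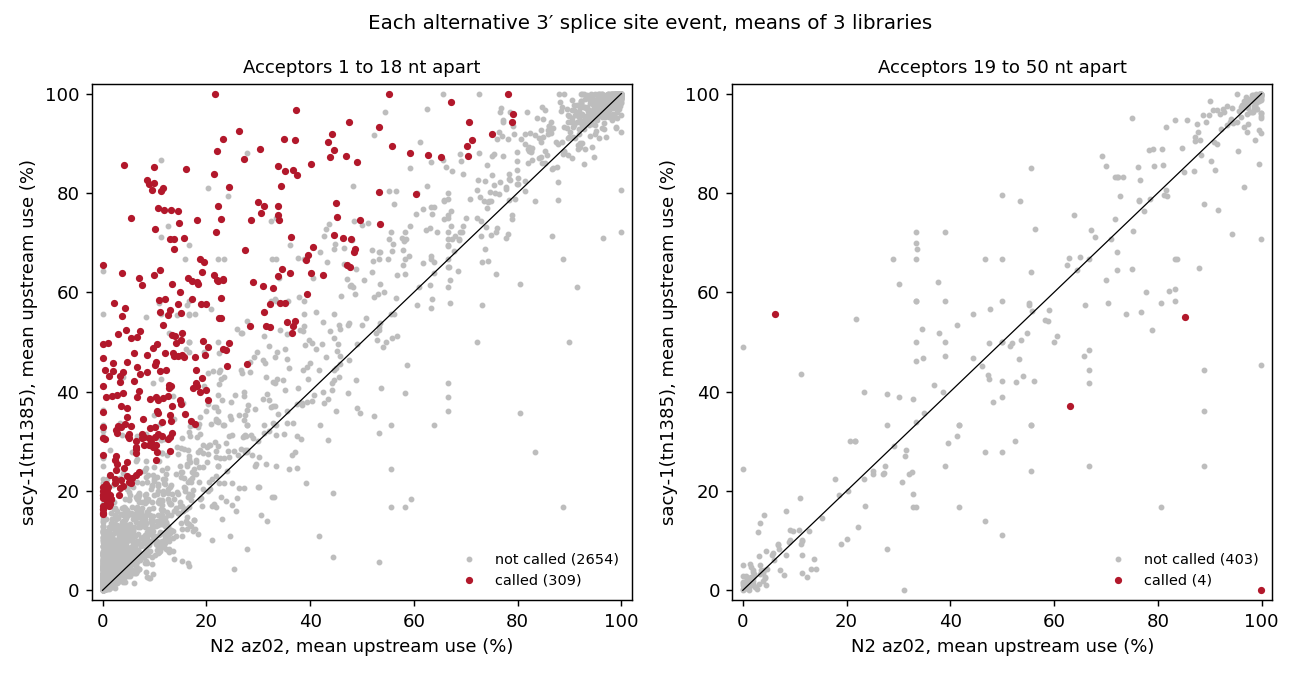
Mean upstream acceptor use of each alternative 3′ event in sacy-1(tn1385) (vertical axis, %) against N2 az02 (horizontal axis, %), each a mean of 3 libraries. Red points are called events and grey points are not, and the line marks equal use. In the left panel, all 309 called pairs with acceptors 1 to 18 nt apart lie above the line. In the right panel, 4 of 407 pairs with acceptors 19 nt or more apart are called, 1 of them above the line.

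The size of the shift differed with the spacing of the acceptors. Mean upstream use over the 1227 pairs 1 to 6 nt apart was 45.1%, 45.8% and 45.0% in the sacy-1 libraries, against 39.4%, 40.9% and 39.6% in N2 az02. Over the 1736 pairs 7 to 18 nt apart it was 30.5%, 30.6% and 29.9% in sacy-1, against 21.8%, 22.9% and 22.1% in N2 az02. In both ranges the lowest sacy-1 library lay above the highest N2 az02 library. The differences were 5.32 and 8.06 points. An exact permutation test, two-sided, gave p = 0.1 for each, which is the lowest value possible with 3 against 3 libraries (adjusted p = 0.2 over 4 tests). Against N2 az04 the difference at 1 to 6 nt was only 2.03 points, while that at 7 to 18 nt was 5.80 points. Pairs 19 nt or more apart averaged 56.3% ± 0.51 in sacy-1 and 57.2% ± 1.4 in N2 az02 (SD, n = 3 each, exact permutation p = 0.4, adjusted p = 0.5), and these groups overlapped.

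Among single spacings up to 18 nt, the share of pairs called was highest at 9, 12 and 15 nt. Over all pairs up to 18 nt it was 10.4%, and the share at 6 nt was close to that. At 9 nt, 131 of 562 pairs were called (23.3%), and mean use was 35.7% ± 0.37 in sacy-1 and 22.9% ± 0.84 in N2 az02 (SD, n = 3 each). At 12 nt, 45 of 214 were called (21.0%), with 36.4% ± 0.072 in sacy-1 and 25.7% ± 0.62 in N2 az02. At 6 nt, 79 of 780 were called (10.1%), with 31.8% ± 0.65 in sacy-1 and 24.8% ± 1.3 in N2 az02. Any spacing that is a multiple of 3 keeps the reading frame where the pair lies in a coding sequence. At 15 nt, 10 of 82 were called (12.2%), but at 18 nt only 2 of 41 (4.88%). Spacings next to 6, 9 and 12 nt held a smaller share of calls than these 3, with 17 of 285 pairs at 7 nt (5.96%), 6 of 190 at 8 nt, 6 of 128 at 10 nt, 5 of 101 at 11 nt and 2 of 55 at 13 nt.

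Taking all spacings from 4 to 18 nt, 267 of 1679 pairs whose spacing is a multiple of 3 were called (15.9%), and 39 of 958 pairs of other spacings (4.07%). Mean use of the in-frame pairs was 34.6% ± 0.52 in sacy-1 and 25.1% ± 1.0 in N2 az02, 9.47 points apart. For the frame-shifting pairs it was 26.9% ± 0.15 in sacy-1 and 22.8% ± 0.42 in N2 az02 (SD, n = 3 each), 4.18 points apart. Against N2 az04 the in-frame pairs differed by 5.65 points and the frame-shifting pairs by 2.88 points. Both kinds were thus higher in sacy-1 than in either N2 set, and whether the size of the shift differed between them was not tested. The frame-shifting pairs were also the ones with less upstream use in N2 az02. The files measure RNA that was present in the larvae, so making and loss of each form cannot be told apart.

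The closest pairs behaved differently. Of 231 pairs 3 nt apart, 2 were called (0.866%), and mean use was 74.4% ± 0.23 in sacy-1 and 71.8% ± 0.35 in N2 az02 (SD, n = 3 each). Pairs 1, 2 and 4 nt apart differed by -0.10, 0.45 and 1.53 points, with 1 of 50, 0 of 45 and 0 of 46 called by limma, and 1, 3 and 7 at an unadjusted p below 0.05. At 3 nt the upstream acceptor was already the main one in N2 az02, as it was at 1, 2 and 4 nt, with means of 80.6%, 70.4% and 74.5%. From 5 nt up to 18 nt the downstream acceptor was the main one in N2 az02, and at 5 nt 3 of 75 pairs were called with a mean difference of 4.59 points.

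**Figure D2:**
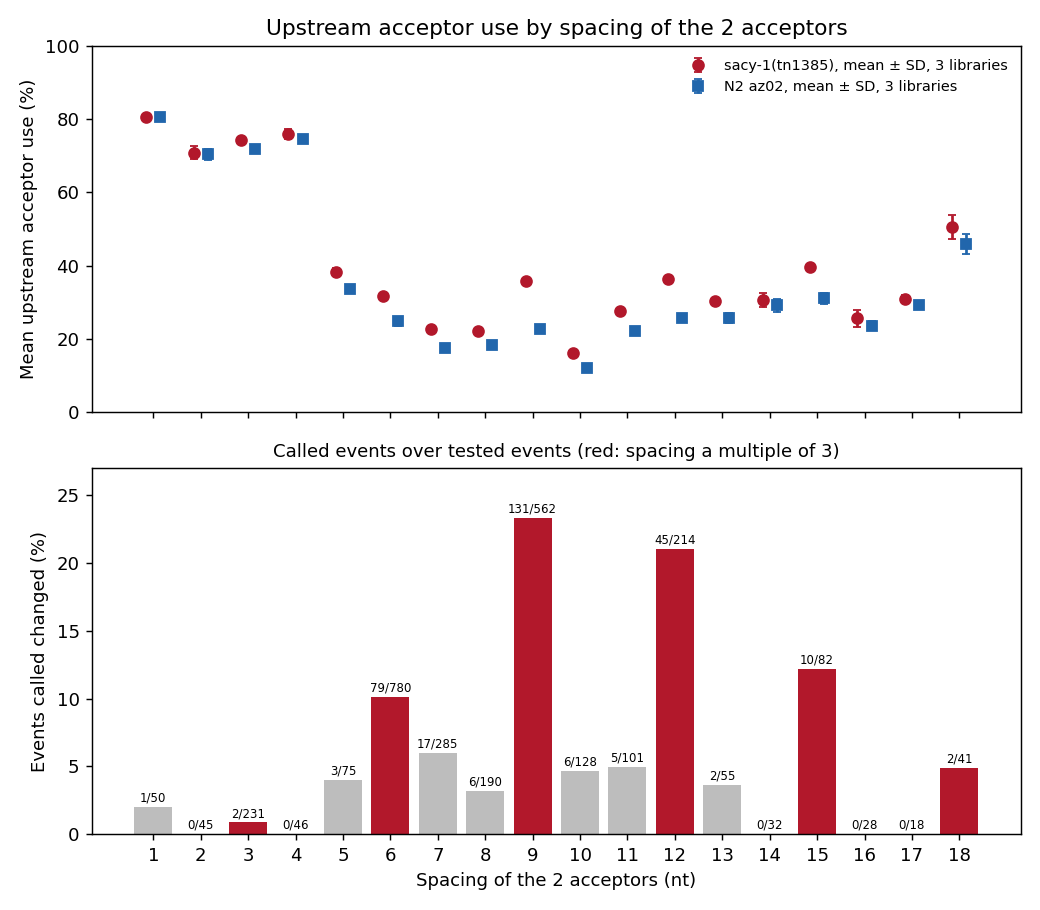
Above, mean upstream acceptor use (%, mean ± SD of 3 libraries) for each spacing of the acceptors in nt, with sacy-1(tn1385) as red circles left of N2 az02 as blue squares. Below, the percentage of tested pairs called at each spacing, with called over tested pairs above each bar and multiples of 3 in red. The tallest bars are 9 nt (131/562) and 12 nt (45/214), and both groups lie over 70% at 1 to 4 nt.

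The called pair with the largest difference at each spacing, with 1 pair kept where called pairs overlap, shows what the shift looked like in single libraries. The rule for naming events took only called events whose groups did not overlap. The largest rise was at a 12 nt pair at chrX:5286790-5287117 (plus strand), with acceptors at 5286961 and 5286973. Upstream use was 93.0%, 75.5% and 88.5% in the sacy-1 libraries, against 0.1%, 9.09% and 3.45% in N2 az02. The groups were far apart, with the upstream acceptor the main one in sacy-1 and the downstream one nearly the only one in N2 az02 (difference 81.4 points, SE 5.40, limma adjusted p = 0.00183). Its intron is 41 nt long, counted to the upstream acceptor.

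A 9 nt pair at chrI:7539111-7539445 (minus strand), with acceptors at 7539255 and 7539246, stood at 88.4%, 85.8% and 81.4% in sacy-1 and at 5.03%, 14.5% and 10.45% in N2 az02. The difference was 75.2 points (SE 3.15, limma adjusted p = 0.000514). A 15 nt pair at chrI:10191980-10192307 (minus strand), with acceptors at 10192118 and 10192103, stood at 95.7%, 89.8% and 87.2% in sacy-1 and at 13.0%, 29.1% and 27.3% in N2 az02. In both pairs every sacy-1 library lay more than 50 points above every N2 az02 library. The 15 nt pair differed by 67.8 points (SE 5.19, limma adjusted p = 0.00287), but N2 az04 was at 53.2%, 34.1% and 49.7%, well above N2 az02, and the difference from that set was 45.3 points. An 18 nt pair at chrI:2765533-2765886 (minus strand), with acceptors at 2765697 and 2765679, stood at 75.6%, 71.0% and 82.7% in sacy-1 and at 13.6%, 15.2% and 11% in N2 az02 (difference 63.2 points, SE 3.33, limma adjusted p = 0.000904).

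Large shifts also occurred at some frame-shifting spacings. An 11 nt pair at chrII:13387349-13388555 (plus strand), with acceptors at 13388398 and 13388409, was used upstream at 45.6%, 52.1% and 51.3% in sacy-1 and at 10.4%, 14.3% and 6.90% in N2 az02 (difference 39.1 points, SE 2.73, limma adjusted p = 0.00213). Its intron was 902 nt long. A 7 nt pair at chrI:2267329-2267754 (minus strand), with acceptors at 2267443 and 2267436, was at 51.1%, 46.7% and 51% in sacy-1 and at 0.1% in each N2 az02 library (difference 49.5 points, SE 1.39, limma adjusted p = 0.000300). As the naming rule required, neither pair overlapped between the groups. The N2 az04 libraries of the 7 nt pair were at 1.27%, 0.62% and 5.03%, so its upstream acceptor was little used in the second wild-type set too. A 13 nt pair at chrV:18232805-18233141 (plus strand), with acceptors at 18232992 and 18233005, used its downstream acceptor at 0.1% in all 3 sacy-1 libraries, against 47.8%, 40% and 46.7% in N2 az02, so that upstream use rose by 44.7 points (SE 2.26, limma adjusted p = 0.000818).

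Other calls among these depended on the libraries used. An 8 nt pair at chrIV:11505031-11505631 (plus strand), with acceptors at 11505501 and 11505509, was at 85.7%, 86.7% and 94.4% in sacy-1 and at 10%, 40% and 41.2% in N2 az02 (difference 58.5 points, limma adjusted p = 0.0275). It was no longer called when any 1 library other than az021 was left out (55.8 to 63.9 points). A 10 nt pair at chrX:11080796-11081105 (plus strand), with acceptors at 11080953 and 11080963, was at 57.1%, 66.7% and 33.3% in sacy-1 and at 0.1%, 6.25% and 7.14% in N2 az02 (difference 47.9 points, limma adjusted p = 0.0436). This pair too was not called when any 1 library other than az026 was left out (40.7 to 49.2 points). Groups did not overlap in either pair, which the naming rule required. A 6 nt pair at chrII:3298212-3298503 (plus strand), with acceptors at 3298387 and 3298393, used its downstream acceptor at 0.1% in all 3 sacy-1 libraries. Its upstream acceptor was at 0.1%, 42.9% and 22.2% in N2 az02 and at 33.3%, 50% and 20% in N2 az04. With depth unknown, such simple fractions and values of 0.1% may rest on few reads. The call against N2 az02 (78.2 points, limma adjusted p = 0.0185) was lost without az024, az025 or az026 (78.2 points each) or az023 (78.4 points). A 5 nt pair, which differed by 24.9 points, lost its call against N2 az04 (14.4 points) and without any 1 library except az022 (21.8 to 26.8 points).

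The closest called pairs gave mixed results. The only called pair 1 nt apart, at chrI:2632041-2632274 (plus strand), was at 40%, 25% and 33.3% in sacy-1 and at 0.1% in each N2 az02 library (difference 32.7 points, limma adjusted p = 0.0110). The second wild-type set did not share that low value, since N2 az04 was at 33.3%, 0.1% and 42.9%. Its call was lost against N2 az04 (7.35 points), against all 6 N2 libraries (20.0 points), in 1 fit of all 12 libraries (32.7 points) and without az026 (32.4 points), az021 or az023 (32.7 points each). A 3 nt pair at chrI:391667-392196 (minus strand), with acceptors at 391809 and 391806, was at 54.8%, 57.1% and 60.7% in sacy-1 and at 31.8%, 28.6% and 36.4% in N2 az02 (difference 25.3 points, limma adjusted p = 0.00681). That call was lost against N2 az04 (17.6 points), whose libraries were at 51.9%, 41.9% and 26.3%, and with a variance trend (25.3 points). Of the 16 pairs chosen in this way, 1 for each spacing with a called pair, 9 kept their call whichever library was left out, and 4 lost it against N2 az04.

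**Figure D3:**
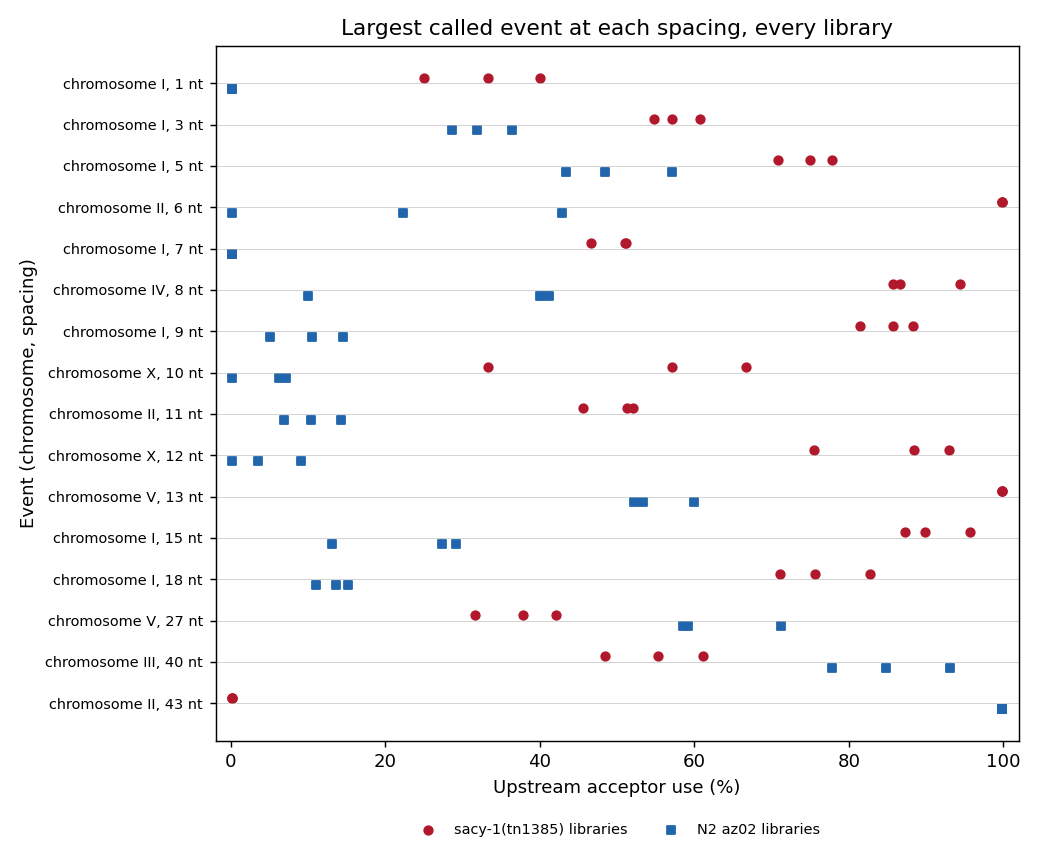
Upstream acceptor use (%) in every library for the called alternative 3′ event with the largest difference at each spacing, after 1 event was kept at each place where called events overlap, named by chromosome and spacing. Red circles are the 3 sacy-1(tn1385) libraries and blue squares below them the 3 N2 az02 libraries. The groups do not overlap in any of the 16 events, which the choice of events fixed, and sacy-1 is the higher group in 13 of them, up to 18 nt.

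The difference from N2 az02 also varied with the use of the upstream acceptor in wild-type larvae. Use in N2 az04, a set outside this comparison, was taken to sort the pairs up to 18 nt apart. Pairs at 25% to 50% in N2 az04 differed most, with 43.5% ± 0.80 in sacy-1 and 27.7% ± 2.4 in N2 az02 (SD, n = 3 each), and 101 of 365 were called (27.7%). Pairs at 5% to 25% averaged 20.6% ± 0.70 in sacy-1 and 9.60% ± 0.83 in N2 az02, with 121 of 640 called (18.9%). At 50% to 75%, use averaged 65.8% ± 1.0 in sacy-1 and 53.7% ± 2.2 in N2 az02, with 40 of 198 called (20.2%). Much of these differences lay between the wild-type sets. In the class of 25% to 50%, N2 az04 itself lay 8.53 points above N2 az02, and sacy-1 lay 7.21 points above N2 az04, close to the 7.06 points of the class of 5% to 25%. In the class of 50% to 75%, sacy-1 lay 4.33 points above N2 az04. Since N2 az04 chose the classes, its levels in them are a description.

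Both ends differed less. Pairs under 5% in N2 az04, the largest class, averaged 4.94% ± 0.24 in sacy-1 and 1.28% ± 0.21 in N2 az02, and 41 of 1124 were called (3.65%). Pairs at 95% or more averaged 98.6% ± 0.12 in sacy-1 and 97.9% ± 0.12 in N2 az02, and 0 of 425 were called by limma, with 34 higher and 8 lower at an unadjusted p below 0.05. The median over the pairs of the lowest class was 1.49 points, and in 473 of them (42.1%) all sacy-1 libraries lay above all N2 az02 libraries. In 5 (0.445%) they all lay below. Over all pairs up to 18 nt these shares were similar above, at 39.1%, and 1.65% below. Acceptors that wild-type larvae rarely used were therefore used somewhat more in sacy-1, though seldom by the 15 points that a call required.

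**Figure D4:**
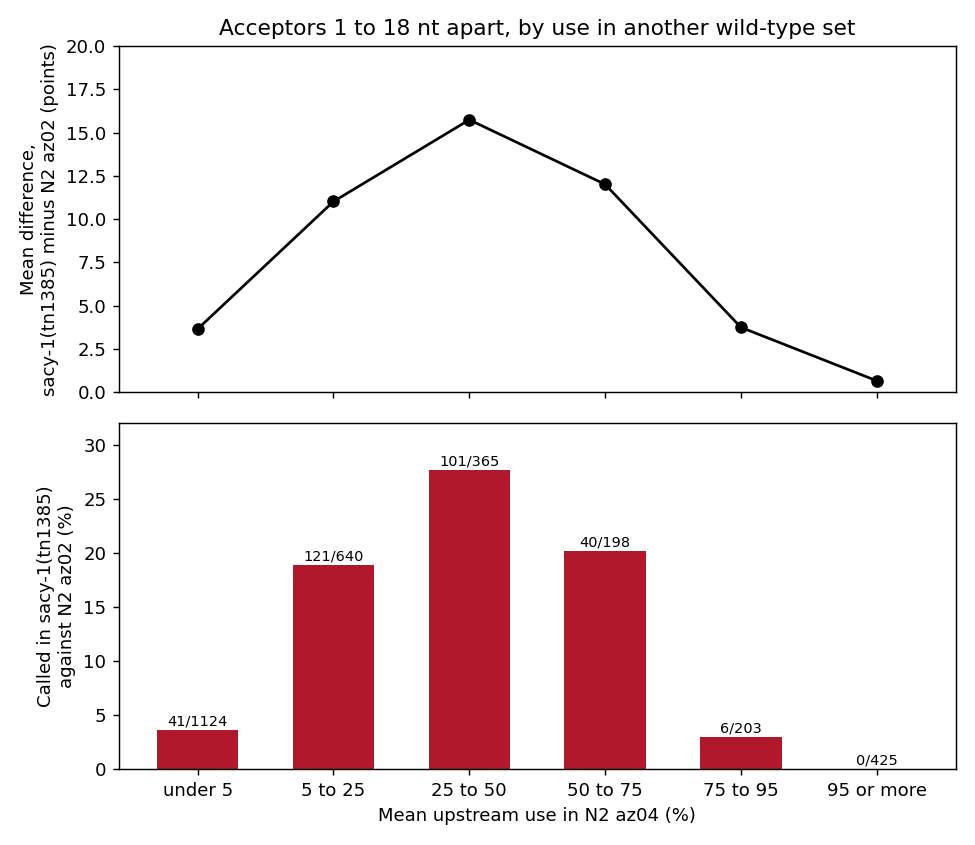
Above, the mean difference in upstream use (sacy-1(tn1385) minus N2 az02, points) over pairs with acceptors 1 to 18 nt apart, sorted by mean upstream use in the 3 N2 az04 libraries (horizontal axis, %). Below, the percentage of these pairs called, with called over tested pairs above each bar. The difference is highest at 25% to 50% (15.7 points, 101/365 called) and lowest at 95% or more (0.67 points, 0/425 called).

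Some upstream acceptors were at or below 0.1% in all 6 N2 libraries and in use in sacy-1. Of 139 such alternative 3′ events among the 3345 listed in all 12 libraries, 90 were above 0.1% in all 3 sacy-1 libraries, and 35 were above it in all 3 mog-5 libraries. At least 5% in every library was reached by 14 events in sacy-1 and by 5 in mog-5. Some of the 14 had values that are simple fractions, such as 12.5%, 25% and 25% in sacy-1 at a 10 nt pair on chromosome X. With depth unknown, such values and those of 0.1% may rest on few reads. One of the 14, an 11 nt pair at chrX:3285241-3285416 (plus strand) with acceptors at 3285355 and 3285366, was at 10%, 10.5% and 9.76% in sacy-1 and at 0.1% in the 3 mog-5 and the 6 N2 libraries. Another, a 7 nt pair at chrIV:9309248-9309516 (minus strand) with acceptors at 9309401 and 9309394, was at 12.2%, 13.3% and 10.1% in sacy-1 and at 2.90%, 1.93% and 0.73% in mog-5. Both were picked after their values were seen, and neither was called, since the differences stayed under 15 points. In the other direction, 0.1% or less in all sacy-1 libraries and at least 5% in all 6 N2 libraries was seen in 1 event, the 43 nt pair described below. That count cannot be set against the 14, since it asks for the low value in 3 libraries and not in 6. The 139 events, chosen for the lowest values in N2, could hardly be lower in a mutant.

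A few introns offered 3 or more listed acceptors to the same donor. Of 152 such donors, 24 had a called event and 3 had 2. Among pairs up to 18 nt, 7.47% were called at such donors and 10.8% at donors with 2 listed acceptors. At 1 of the 3, the donor at position 18101616 of chromosome V, the acceptors lie at 18101670, 18101673 and 18101682. The pair of the first and the last of these was at 93.8%, 94.05% and 92.1% in sacy-1 and at 42.5%, 66.7% and 50.7% in N2 az02. The pair of the middle and the last was at 40%, 41.2% and 38.9% in sacy-1 and at 2.33%, 9.26% and 9.21% in N2 az02. Both pairs share the downstream acceptor and both were higher in sacy-1 in every library (differences of 40.1 and 33.1 points, limma adjusted p = 0.0265 and 0.00189). Events that share an acceptor are not separate observations. Over all pairs up to 18 nt, those at donors with 2 listed acceptors differed by 7.03 points, and those at donors with more by 6.14 points. Against N2 az04 the values were 4.26 and 4.38 points.

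Mean use was higher in sacy-1 in every intron length class and on every chromosome, against either N2 set. Over pairs up to 18 nt apart, sacy-1 lay 7.26 points above N2 az02 for introns under 50 nt, and between 5.47 and 7.26 points above it in each of the longer classes. Above N2 az04 it lay by 3.80 to 4.78 points in these classes. By chromosome the difference from N2 az02 ran from 6.30 points on X to 7.69 points on I. The order was not the same against N2 az04, where X had the highest difference, 5.75 points, and chromosomes I and III had 3.81 and 3.37 points. Calls made up between 7.48% and 11.8% of the pairs in each intron length class, and between 8.91% and 11.6% on each chromosome.

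Distant acceptors gave few calls and a different picture. Of 407 pairs 19 nt or more apart, 4 were called (0.983%), 1 higher and 3 lower in sacy-1. A 43 nt pair at chrII:7497705-7497989 (minus strand), with acceptors at 7497812 and 7497769, switched completely. Its upstream acceptor was at 0.1% in all 3 sacy-1 libraries, and its downstream acceptor was at 0.1% in all 9 others, namely 3 mog-5, 3 N2 az02 and 3 N2 az04 libraries (limma adjusted p = 1.85e-07). With no spread in either group, that p rests on the spread of other events. The other 2 lower pairs, 40 nt apart at chrIII:897066-897531 and 27 nt apart at chrV:7880979-7881340, fell by 30.3 and 25.8 points. In each the call was lost whichever of the 6 libraries was left out, with differences of -26.4 to -34.0 points and -21.7 to -28.2 points. The first was also lost against N2 az04 (-16.6 points), and the second with a variance trend (-25.8 points). The pair that was higher, 27 nt apart at the donor at position 11505159 of chromosome IV, shares its downstream acceptor with a called pair 8 nt apart.

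At the other end of the intron no shift was seen beyond the spread between libraries. Alternative 5′ events averaged 50.3% ± 0.18 in sacy-1 and 50.2% ± 0.24 in N2 az02 (SD, n = 3 each, exact permutation p = 0.7, adjusted p = 0.9 over 10 classes). Of 1699 tested, 8 were called (0.471%), 3 higher and 5 lower, and at an unadjusted p below 0.05 by limma 63 leaned each way. Those 1160 with donors up to 18 nt apart averaged 49.2% ± 0.20 in sacy-1 and 49.1% ± 0.48 in N2 az02. One called event, with donors 4 nt apart at chrI:5240686-5241015 (minus strand), used its upstream donor at 26.3%, 33.3% and 19.2% in sacy-1 and at 0.1%, 0.1% and 2.44% in N2 az02. The groups did not overlap, as the naming rule required, and all 6 mog-5 and N2 az04 libraries were at 0.1%. Use of its downstream donor, the form tested, differed by -25.4 points (limma adjusted p = 0.0202), a call lost without az024 (-25.4 points), az021 or az022 (-25.02 points each) or az023 (-26.2 points).

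In the Ensembl catalogue 17 of 2382 events were called (0.714%), and 16 of these lay at an acceptor pair that was itself called. These 16 contain an intron of a called alternative 3′ event, and in all 46 of the 2382 tested Ensembl events contain such an intron. The other 2336 gave 1 call. The 16 were 12 alternative last exon events, 2 mutually exclusive exon events and 2 retained introns. Each of the last exon and mutually exclusive exon events held both introns of its pair. The 12 last exon events lay at only 8 loci and differed by as much as their pairs, so the same acceptor choice was listed more than once there. The mutually exclusive exon events and the retained introns had values of their own. The picture depended on the N2 set and on single libraries. Against N2 az04, 69 Ensembl events were called (2.84%), 37 higher and 32 lower in sacy-1, and 56 of them contain no intron of an alternative 3′ event called against either N2 set. Those included 18 skipped exons, 15 alternative first exons and 8 retained introns. Without az021 there were 5 Ensembl calls, and 7 without az025 or az026.

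Values in single libraries show the overlap. The alternative last exon event at chrIV:6324715-6326391 (plus strand) was at 76.5%, 76.5% and 76.25% in sacy-1 and at 12.6%, 16.4% and 14.9% in N2 az02, the same values as the 9 nt pair at acceptors 6325300 and 6325309. This last exon event differed by 61.8 points (SE 1.04, limma adjusted p = 0.000107), and the naming rule required groups without overlap. The mutually exclusive exon event at chrI:6125447-6125925 (plus strand) was at 30.6%, 33.9% and 33.1% in sacy-1 and at 6.67%, 10.4% and 9.96% in N2 az02 (difference 23.5 points, limma adjusted p = 0.0138). The 6 nt pair it contains, with acceptors at 6125647 and 6125653, was at 82.5%, 83.2% and 85.8% in sacy-1 and at 14.7%, 25.4% and 24.2% in N2 az02. The mutually exclusive exon call was lost without az025 (22.8 points), az026 (23.2 points), az021 (22.3 points) or az023 (23.96 points).

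Both called retained introns end at the downstream acceptor of a called pair. The 51 nt intron at chrIII:5505164-5505214 was retained at 21.4%, 20.1% and 18.9% in sacy-1 and at 3.92%, 4.80% and 4.55% in N2 az02 (difference 15.7 points, limma adjusted p = 0.00490). Use of the upstream acceptor 6 nt before its end was 37.0%, 34.8% and 32.9% in sacy-1 and 4.48%, 5.59% and 4.35% in N2 az02. The 53 nt intron at chrX:10781037-10781089 was retained at 69.6%, 68.6% and 72.1% in sacy-1 and at 53.5%, 55.85% and 53.8% in N2 az02 (difference 15.7 points, limma adjusted p = 0.0216), and its pair is 3 nt apart. Neither intron overlapped between the groups, which the naming rule required, and both calls depended on the libraries used. The first was lost without az025 (15.7 points) or az021 (15.4 points) and against N2 az04 (14.4 points). The second was lost whichever library was left out (14.7 to 16.5 points), against N2 az04 (11.5 points), against all 6 N2 libraries (13.6 points) and with a variance trend (15.7 points). Across all 7 retained introns that share an intron with a called pair, 3 were higher and 4 lower in sacy-1.

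Intron retention as a whole differed by less than the spread between libraries. Over 775 retained intron events the mean was 53.3% ± 0.26 in sacy-1 and 53.1% ± 0.30 in N2 az02 (SD, n = 3 each, exact permutation p = 0.5) or 0.20 points apart. At an unadjusted p below 0.05 by limma 47 were higher and 20 lower in sacy-1. Against N2 az04 the mean differed by -0.085 points. Introns under 60 nt averaged 50.9% ± 0.24 in sacy-1 and 50.8% ± 0.27 in N2 az02, and longer ones 55.3% ± 0.32 in sacy-1 and 55.0% ± 0.39 in N2 az02. Among 546 alternative first exons and 154 events with several skipped exons, limma called 0. At an unadjusted p below 0.05, 22 first exons were higher and 28 lower in sacy-1, and 6 events with several skipped exons were higher and 18 lower.

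The 1 Ensembl call against N2 az02 away from called acceptor pairs was a skipped exon of 88 nt at chrX:17386800-17386887 (minus strand). It was skipped at 63.2%, 66.2% and 67.05% in sacy-1 and at 0.1%, 1.04% and 0.1% in N2 az02, which is a difference in inclusion of -65.1 points (SE 1.15, limma adjusted p = 0.000107). Skipping was 0.81%, 0.1% and 0.72% in the mog-5 libraries and 1.06%, 1.37% and 2.39% in the N2 az04 libraries, so the 3 sacy-1 libraries stood alone among the 12. As at the 43 nt pair on chromosome II, the 3 sacy-1 libraries lay close together and far from the other 9.

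The choice of wild-type set moved the size of the shift, and in 3 of the 310 pairs called higher the difference was not above 0 against N2 az04. Both comparisons use the same sacy-1 libraries. Among the 310 called events that were higher in sacy-1, the median difference was 22.3 points against N2 az04 and 30.1 points against N2 az02. It was above 0 against N2 az04 in 307, in 281 of them all 3 sacy-1 libraries also lay above all 3 N2 az04 libraries, and 195 were called against that set, where limma called 5.02% of library-intron events. The N2 sets themselves differed, since mean use over pairs up to 18 nt was 2.59 points higher in N2 az04 than in N2 az02. At 6 nt this was strongest. There sacy-1 lay 2.46 points above N2 az04, and N2 az04 lay 4.51 points above N2 az02. Against N2 az04, 21 alternative 3′ events were called lower in sacy-1, 12 of them 6 nt apart with differences of -15.01 to -29.3 points. Against N2 az02 these 12 differed by -14.1 to 4.25 points. At 9 nt the difference from N2 az04 was still 9.21 points.

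The mog-5(az192) larvae, compared with their own N2 az04 set, share no library with this comparison. Over the 310 events called higher in sacy-1, median use per library was 51.1%, 50.7% and 50% in sacy-1 and 37.8%, 44.9% and 34.5% in mog-5, against 10.4%, 16.3% and 11.9% in N2 az02 and 28.4%, 18.75% and 23.9% in N2 az04. The choice of events favours sacy-1 here. Over all pairs up to 18 nt, mean use was 36.5%, 36.9% and 36.2% in sacy-1 and 35.2%, 37.6% and 34.5% in mog-5, and these overlapped. At 6 nt it averaged 31.7% in sacy-1 and 33.5% in mog-5. The mog-5 effect over the 310 events had a median of 11.8 points, and it was above 0 in 302 of them (97.4%). Over all 3345 alternative 3′ events it was above 0 in 2550 (76.2%), with a median of 1.02 points. Of the events called in mog-5, which were 1.3% of its library-intron events, 66 were alternative 3′ events tested here. The 52 alternative 3′ events called in both were 16.6% of those called in sacy-1 and 78.8% of those 66.

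The difference between both effects, which includes any difference between the N2 sets, was tested as an interaction in 1 fit of all 12 libraries. It passed limma's adjusted p below 0.05 in 124 of 5019 library-intron events (2.47%), with the sacy-1 effect higher in 116 of these and lower in 8. Those 116 were all alternative 3′ events with acceptors up to 18 nt apart, with median effects of 34.1 points in sacy-1 and 8.29 points in mog-5. In 104 of them the mog-5 effect was also above 0. A 9 nt pair at chrX:17600325-17600621 (plus strand), with acceptors at 17600520 and 17600529, shows the contrast. This pair was named for the smallest interaction adjusted p among called events with the higher sacy-1 effect, so its contrast was built into the choice. It was at 43.55%, 42.1% and 47.2% in sacy-1 and at 3.58%, 2.98% and 3.62% in mog-5, and at 0.33%, 0.57% and 0.64% in N2 az02 and 0.47%, 0.33% and 0.21% in N2 az04. Both mutants lay above their N2 sets in every library, and the effects of 43.8 and 3.06 points differed by 40.7 points (limma adjusted p = 2.44e-06).

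The next pairs, 12 nt and 9 nt apart, were named by the same rule, so their contrast was built into the choice as well. A 12 nt pair at chrIV:11210138-11210464 (minus strand), with acceptors at 11210268 and 11210256, was at 45.2%, 44.9% and 42.6% in sacy-1 and at 9.91%, 10.9% and 8.94% in mog-5. Its libraries were at 0.97%, 2.81% and 2.12% in N2 az02 and at 5.82%, 2.41% and 4.49% in N2 az04. The effects of 42.3 points in sacy-1 and 5.69 points in mog-5, which was not called, differed by 36.6 points (limma adjusted p = 2.74e-06). A 9 nt pair at chrV:20239830-20241375 (minus strand), with acceptors at 20239985 and 20239976, was at 25.7%, 25.3% and 27.6% in sacy-1 and at 10.4%, 10.4% and 10.1% in mog-5, with N2 az02 at 1.64%, 3.74% and 2.06% and N2 az04 at 8.36%, 5.84% and 6.25%. Its effects were 23.7 points in sacy-1 and 3.47 points in mog-5, which was not called, and were apart by 20.25 points (limma adjusted p = 5.97e-05). In these 3 pairs the sacy-1 libraries lay above all 9 other libraries, which the choice favoured. By contrast, a 6 nt pair at chrII:7246384-7247440 (plus strand), with acceptors at 7247294 and 7247300, was at 92.95%, 93.8% and 96.0% in sacy-1 and at 95.35%, 97.4% and 93.0% in mog-5, against 79.6%, 75.7% and 81.6% in N2 az02 and 78.6%, 78.9% and 76.2% in N2 az04. Its effects were 15.3 points in sacy-1 and 17.4 points in mog-5 (interaction -2.04 points, limma adjusted p = 0.851). The sacy-1 call at this pair was lost without az026 (14.4 points) or az022 (13.7 points).

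**Figure D5:**
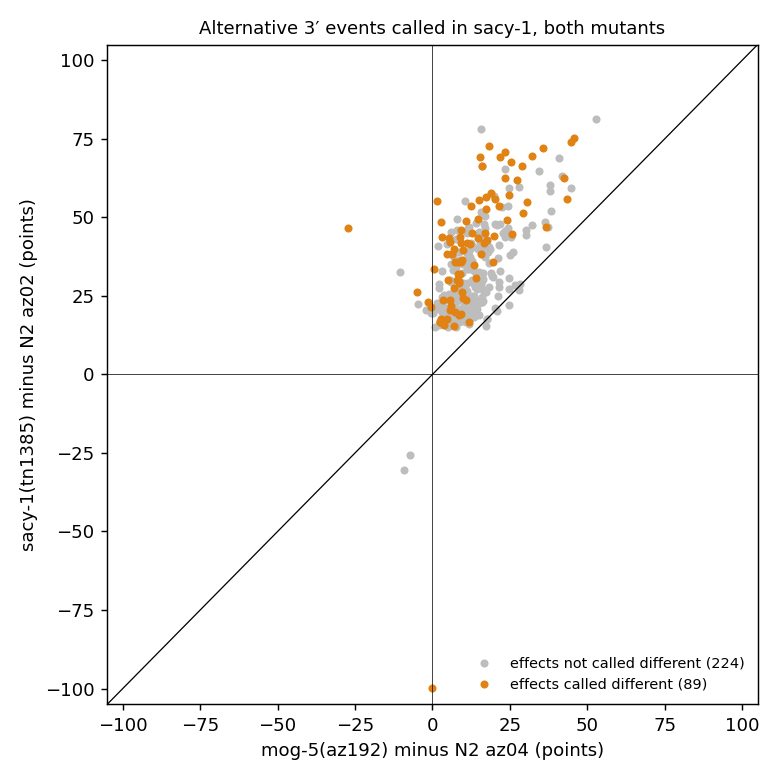
Difference in upstream use for the 313 alternative 3′ events called in sacy-1, with sacy-1(tn1385) minus N2 az02 on the vertical axis and mog-5(az192) minus N2 az04 on the horizontal axis (points). Orange marks the 89 events whose effects differ at limma's adjusted p below 0.05, and the line marks equal effects. Of the 310 events above 0 in sacy-1, 302 are also above 0 in mog-5, and 305 have the larger effect in sacy-1, which the choice of events by their sacy-1 effect favours.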

How the data were processed

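Each of the 12 libraries had 2 lists of splicing events on build ce10, per the file headers. The authors' deposited value is a score per mille for each form of an event, and Bowtie2, STAR and SAMtools were used, per the submitters' processing notes. The annotation behind the library-intron catalogue and the meaning of scores that sum to less than 1000 are not given in the sources used here.

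Use is the share of the included form in the 2 scores, in percent (Python 3.11.15). Events listed in all 6 libraries entered a fit of both groups with no covariate in limma 3.58.1 (R 4.3.3). The p-values were adjusted by Benjamini-Hochberg, separately for each catalogue. A call needed an adjusted p below 0.05 and 15 points. The fit was tested on simulated data. Means over classes of events were compared by exact two-sided permutation tests over libraries. Named events followed a rule, by spacing, direction, extremes of N2 az02 use, type and interaction. The members, lists and rules were chosen with earlier results of these data known. No genome of build ce10 was used here, so no sequences or gene names are given. No pair of libraries was identical.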

Additional observations from a re-analysis of the deposited data

Results flagged for a closer look

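Among the named events, those listed here had sacy-1 and mog-5 effects that differed in a test of the difference itself (limma interaction over 12 libraries, adjusted within each catalogue). Each value is the sacy-1 effect against N2 az02 minus the mog-5 effect against N2 az04, in points. It therefore also includes any difference between the N2 sets.

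The alternative 3′ pairs in which the sacy-1 effect was larger were a 7 nt pair at chrI:2267329-2267754 (34.7 points, adjusted p = 0.000318), a 9 nt pair at chrI:7539111-7539445 (29.4 points, adjusted p = 0.00576) and a 15 nt pair at chrI:10191980-10192307 (42.5 points, adjusted p = 0.0249). Further pairs were a 9 nt pair at chrII:10678697-10679007 (26.6 points, adjusted p = 0.00821), a 6 nt pair at chrII:13108176-13108511 (4.74 points, adjusted p = 0.0158) and a 12 nt pair at chrIV:11210138-11210464 (36.6 points, adjusted p = 2.74e-06). The difference was 19.1 points at a 13 nt pair at chrV:18232805-18233141 (adjusted p = 0.0250), 20.25 points at a 9 nt pair at chrV:20239830-20241375 (adjusted p = 5.97e-05) and 40.7 points at a 9 nt pair at chrX:17600325-17600621 (adjusted p = 2.44e-06).

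Estimated effects had opposite signs at a 7 nt pair at chrII:7048730-7049571, with 46.6 points in sacy-1 and -27.3 points in mog-5 (difference 73.8 points, adjusted p = 0.0340). The mog-5 effect was itself not called (limma adjusted p = 0.467). This pair was at 50%, 40% and 50% in sacy-1 and at 20%, 33.3% and 0.1% in mog-5. It was at 0.1% in each N2 az02 library and at 66.7%, 28.6% and 40% in N2 az04. With depth unknown, such simple fractions may rest on few reads. The sacy-1 call there was lost against N2 az04 (1.59 points).

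Switches in all 3 sacy-1 libraries against the other 9 were the 43 nt pair at chrII:7497705-7497989 (-99.8 points, adjusted p = 3.59e-15) and the skipped exon at chrX:17386800-17386887 (-66.1 points, adjusted p = 1.52e-08). The alternative 5′ event at chrI:5240686-5241015 differed by -25.4 points (adjusted p = 0.0129). Alternative last exon events differed by -36.1 points at chrII:12209075-12211109 (adjusted p = 0.0100) and by 34.5 points at chrIV:6324715-6326391 (adjusted p = 0.00105), and both hold a called acceptor pair. Retention of the intron at chrIII:5505164-5505214 differed by 11.4 points (adjusted p = 0.00139).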

How the results depend on the processing

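The 313 alternative 3′ calls became 489 with no minimum difference and 198 with a minimum of 25 points, and the library-intron calls 506 and 205. The 8 alternative 5′ calls became 17 with no minimum and 16 in 1 fit of all 12 libraries. The 17 Ensembl calls became 27 with no minimum, 10 with 25 points, 69 against N2 az04 and 31 in 1 fit of all 12 libraries. With 1 library left out, calls numbered 232 to 285 for library-intron events, 227 to 275 for alternative 3′ events, 3 to 10 for alternative 5′ events (3 without az024, 4 without az026, 5 without az023) and 5 to 14 for Ensembl events (5 without az021, 7 without az025 or az026, 9 without az023, 11 without az022). On the arcsine square root scale 309 of the 313 alternative 3′ calls were shared, and with a variance trend 283. Against all 6 N2 libraries 249 were shared, and against N2 az04 197. With 1 library left out, 214 (without az023) to 250 (without az022) were shared. Mean upstream use against all 6 N2 libraries differed by 3.65 points at 1 to 6 nt and by 6.91 points at 7 to 18 nt, where the exact test of 3 against 6 can pass 0.05 and did. That test treated the 6 N2 libraries as 1 group. Over the pairs listed in all 12 libraries, N2 az04 lay 3.18 and 2.17 points above N2 az02 in these ranges. The difference in intron retention turned to -0.085 points against N2 az04. The interaction count of 124 ran from 67 to 161 with 1 library left out (67 without az044 or az043, 161 without az045). The cause was not tested in any of these. Of 38 named events, 20 kept their call whichever library was left out, 13 lost it against N2 az04, and none changed direction under any setting run. The naming rule, which required groups without overlap, fixed that direction in every setting with N2 az02 alone as the wild type. Only settings with N2 az04 libraries in the wild type could have changed it. No paired analysis was run, because the labels do not say whether any libraries of the groups form pairs. Depth is unknown, so the precision of single values could not be given.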
